A study of Canis lupus familiaris with 4 samples.

Results

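The ABC transporters are the genes whose symbol is ABC, a subfamily letter from A to G and a number, and 29 of the 11277 genes in the count tables met this rule. RNA was sequenced from mammary ductal carcinoma of female dogs (libraries T1 and T2) and from the adjacent non-tumor mammary tissue of the same dogs (C1 and C2, the control). The 6 dogs were not castrated, belonged to different breeds and were 5 to 14 years old, and each library pooled the RNA of 3 of them. T1 and C1 came from the dogs of pool 1 and T2 and C2 from those of pool 2, so an n of 2 counts pools and the spread between single dogs is not seen. No animal carried an engineered allele or received an agent described in the labels.

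ABC proteins bind and hydrolyse ATP at a conserved nucleotide-binding domain, and most of them use that energy to move a substrate across a membrane. Members of subfamilies A and G move sterols and phospholipids, several of subfamilies B, C and G expel drugs and conjugated metabolites, others work in mitochondria, peroxisomes or lysosomes, and those of subfamilies E and F have no membrane domain and act on ribosomes. In the mammary gland ABCG2, the breast cancer resistance protein, is known for carrying riboflavin and drugs into milk. The 29 genes were 9 of subfamily A, 7 of B, 5 of C, 3 of D, 1 of E, 2 of F and 2 of G. By role, 11 handle lipids, 6 expel drugs or organic anions, 4 are mitochondrial or move heme compounds, 3 serve peroxisomes or lysosomes, 3 are soluble, 1 moves peptides and 1 regulates an ion channel.

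The libraries held 35496260 counts in T1 and 3236218 in T2, and 32352002 in C1 and 4027367 in C2, so pool 2 limits the precision. Levels are CPM, the usual read counts scaled to a common library size, here after TMM scaling for composition. The least counted member had 169 counts in T1, 9 in T2, 65 in C1 and 5 in C2, and 7 of the 29 genes had fewer than 50 counts in at least 1 library. The epithelial gene EPCAM had 179.8 and 147 CPM in carcinoma and 252 and 155 CPM in control, with overlap between the tissues. Of 8 measured striated muscle genes 8 were lower in carcinoma. They summed to 21.6 and 27.1 CPM in carcinoma and to 1899 and 3047 CPM in control. The paper names several of these muscle genes among its most downregulated in the same libraries. Neither EPCAM nor the muscle genes are thus an independent check of the tissue labels. In bulk tissue, fewer cells of a type and less RNA per cell cannot be told apart.

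All genes were tested for a difference of carcinoma from control with the quasi-likelihood test of edgeR. A gene is called higher or lower where its Benjamini-Hochberg adjusted p is under 0.05 and its log2 fold change is 1 or more in size. Of the 29 ABC genes, 2 were higher (ABCC4 and ABCA4), 3 were lower (ABCA8, ABCA9 and ABCG2) and 24 were not called. Over all genes tested 4.62% were higher and 5.24% lower, 9.86% in all, and DESeq2 called the same numbers of ABC genes in each direction. The median log2 fold change was 0.25 for the ABC genes and 0.03 for all genes. With the pool as a replicate block, which takes the difference between pools out of the error, 4 ABC genes were higher and 4 lower, against 7.09% and 6.83% of all genes. The block added ABCD2 and ABCB4 to those higher and ABCB1 to those lower. The fit with the block leaves 1 residual degree of freedom. In it 64.1% of all genes and 79.3% of the ABC genes had an adjusted p under 0.05 at any fold change. A small adjusted p with the block is thus common over all genes. An exact permutation test of 2 libraries against 2 cannot give a p below 0.333, so each call rests on the model fitted across genes.

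**Figure D1:**
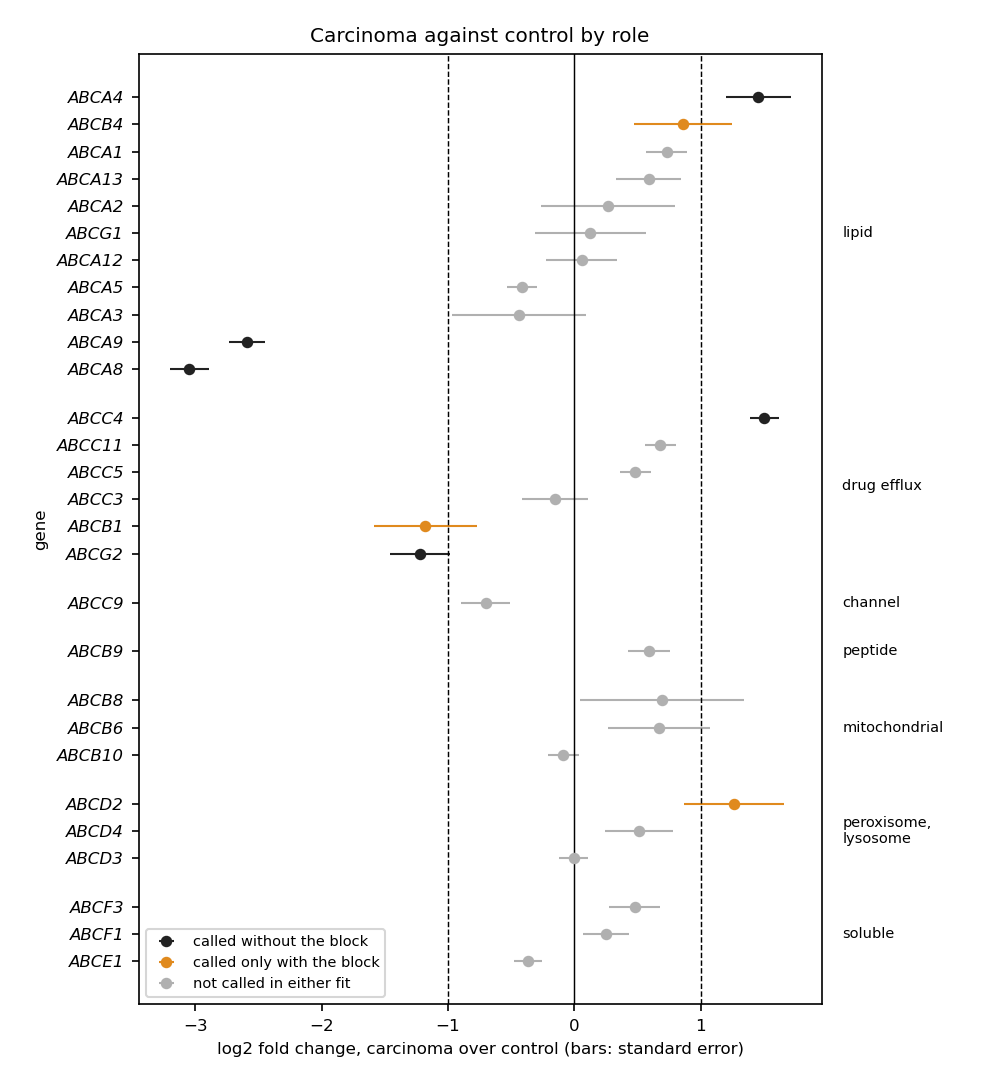
Log2 fold change of carcinoma over control (x axis) for the ABC genes named here (y axis), grouped by role, with bars for the standard error and dashed lines at −1 and 1. The 5 black points are the genes called without the block, from −3.05 for ABCA8 to 1.50 for ABCC4, and the 3 orange points are those called only with it.

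The carcinoma and control libraries did not overlap in CPM for 20 ABC genes, 12 with carcinoma higher and 8 with carcinoma lower. Over all genes 57.6% did not overlap, 29.6% with carcinoma higher and 28% with carcinoma lower. The remaining 9 ABC genes overlapped between the tissues.

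ABCA8 and ABCA9, neighbours in the genome, had the largest differences of the 29 genes, and both were lower in carcinoma. ABCA8 is a transporter of the A subfamily linked to cholesterol and sphingomyelin efflux, and ABCA9 is its close relative. ABCA8 had 24.6 and 21.1 CPM in T1 and T2, against 207 and 175 CPM in C1 and C2. Its log2 fold change was −3.05 (standard error 0.16, edgeR adjusted p = 0.00182), 8.26-fold lower in carcinoma. ABCA9 had 92.9 and 86.8 CPM in T1 and T2, against 591 and 492 CPM in C1 and C2. The log2 fold change was −2.59 (standard error 0.14, edgeR adjusted p = 0.00184), 6.02-fold lower in carcinoma. For each gene the carcinoma libraries lay close together and far below both control libraries. Within pools, ABCA8 had a log2 ratio of −3.08 in pool 1 and −3.05 in pool 2, and ABCA9 of −2.67 and −2.50.

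In the RefSeq annotation of the German Shepherd assembly UU_Cfam_GSD_1.0, ABCA5, ABCA6, an unnamed locus, ABCA9 and ABCA8 follow each other in this order. The build of the count tables was not given in the sources used here. ABCA5, a transporter of late endosomes and lysosomes, stands at the other end of this row and was not called. It had 59.1 and 54.1 CPM in T1 and T2, against 74.7 and 76.7 CPM in C1 and C2, and the log2 fold change was −0.41 (standard error 0.12, edgeR adjusted p = 0.0917). The counts of ABCA9 were 3.79 and 4.11 times those of ABCA8 in T1 and T2, against 2.85 and 2.81 times in C1 and C2. The deposited length of ABCA9, 131214 bases, was 2.22 times its RefSeq span, while that of ABCA8 was 0.79 times, so the ABCA9 feature may cover sequence outside the RefSeq gene. ABCA8 and ABCA9 are also similar in sequence, and how the counting treated reads that match both was not given in the sources used here.

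Genes of fibroblasts were lower in the same libraries. Of 10 listed fibroblast markers 9 were measured, and 5 of these were lower and 0 higher (edgeR, with 9 at an unadjusted p under 0.05, and 7 lower and 0 higher by DESeq2), or 8 lower with the block. Over all genes 28.5% had an unadjusted p under 0.05, the background for such counts here and in the lists that follow. DCN, which encodes decorin, had 141 and 111 CPM in carcinoma and 1192 and 1011 CPM in control. The summed level of the 9 markers was 2759 and 3609 CPM in carcinoma and 7381 and 8319 CPM in control. Of 10 adipocyte markers 4 were measured, and 0 were called without the block (edgeR, 0 also at an unadjusted p under 0.05 and 0 by DESeq2), while PLIN4 was higher with it. The part of fibroblast or adipocyte content in the ABCA8 and ABCA9 difference was not tested.

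**Figure D2:**
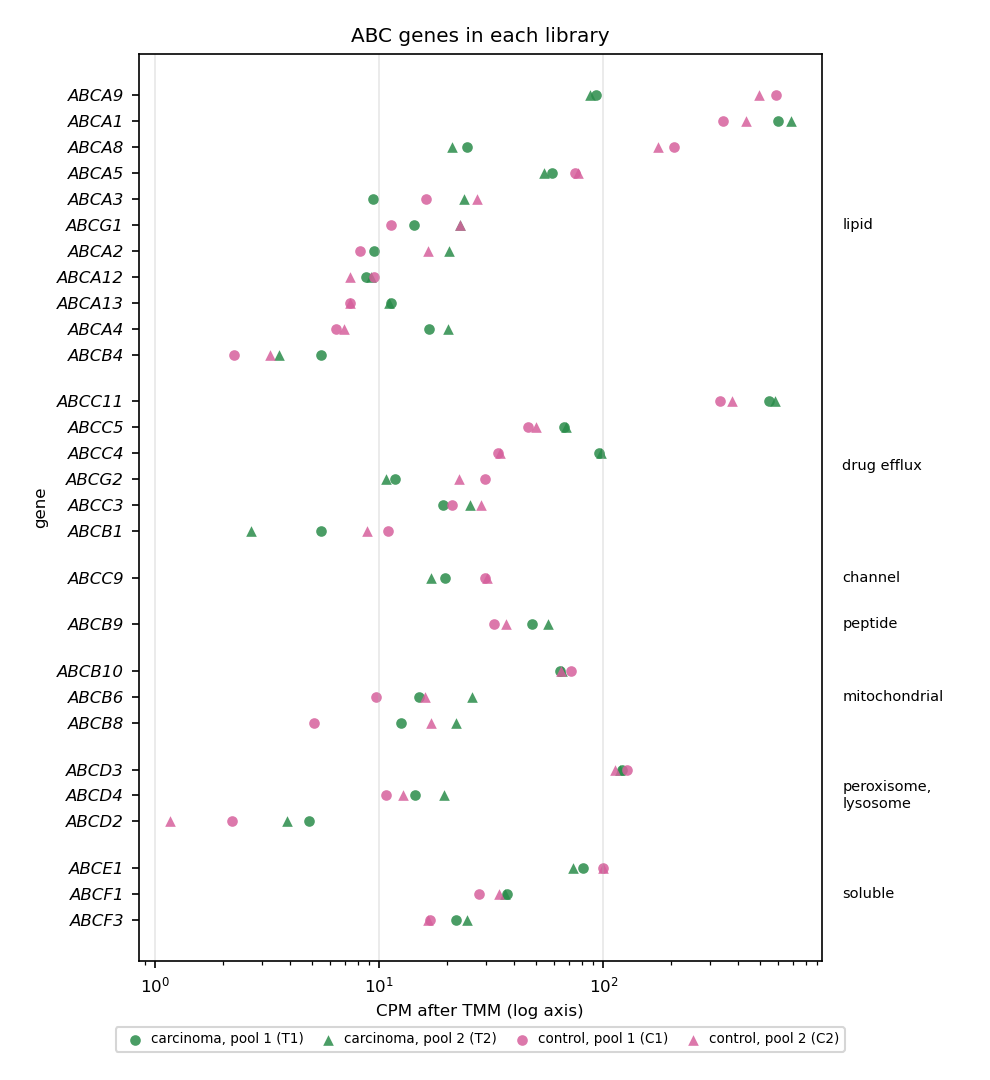
CPM after TMM (x axis, log scale) of the ABC genes named here (y axis) in each library, with carcinoma in green, control in pink, circles for pool 1 and triangles for pool 2. ABCA8 lies at 24.6 and 21.1 CPM in carcinoma and at 207 and 175 CPM in control, while ABCD3 lies near the same level in all libraries.

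Among the other lipid transporters, ABCA4 was higher in carcinoma and ABCA1 passed the adjusted p but not the fold threshold. ABCA4, known as the photoreceptor flippase of retinoid-bound phospholipid, had 16.6 and 20.2 CPM in T1 and T2, against 6.43 and 6.95 CPM in C1 and C2. On the log2 scale its fold change was 1.46 (standard error 0.26, edgeR adjusted p = 0.0243). Both carcinoma libraries exceeded both controls, at a low level, with 68 counts in T2 and 30 in C2. The call was lost without T1 (adjusted p = 0.0730), without T2 (0.0935), without C1 (0.162) and without C2 (0.0690), and the log2 fold change stayed between 1.32 and 1.56.

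ABCA1, which loads cholesterol and phospholipid onto apolipoprotein A-I, had 599.9 and 685 CPM in T1 and T2, against 342 and 431 CPM in C1 and C2. Its log2 fold change was 0.73 (standard error 0.16, edgeR adjusted p = 0.0451), and the tissues did not overlap. This adjusted p was above 0.05 without T1, T2 or C1 and was highest without C1 (0.230), and with at least 10 counts in every library it was 0.0539. Within pools the log2 ratio was 0.81 (95% counting interval 0.78 to 0.85) in pool 1 and 0.67 (0.58 to 0.76) in pool 2. Such intervals cover counting error only. ABCG1, which passes cholesterol to high-density lipoprotein, overlapped between the tissues, at 14.3 and 22.9 CPM in carcinoma and 11.3 and 22.9 CPM in control.

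ABCB4, the phosphatidylcholine flippase of bile, was called only with the block. It had 5.47 and 3.57 CPM in T1 and T2, against 2.24 and 3.25 CPM in C1 and C2. Its fitted log2 fold change was 0.86 without the block (standard error 0.38, edgeR adjusted p = 0.223) and 1.09 with it (adjusted p = 3.63e-05). The difference stood in pool 1, where the log2 ratio was 1.29 (95% counting interval 0.88 to 1.72), while in pool 2, with 12 counts in T2 and 14 in C2, it was 0.14 (−1.11 to 1.36).

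The remaining lipid transporters were not called in either fit. ABCA13 differed by 0.59 on the log2 scale (standard error 0.26, edgeR adjusted p = 0.212), and its libraries did not overlap, at 11.2 and 11 CPM in carcinoma and 7.38 and 7.42 CPM in control. ABCA2, ABCA3 and ABCA12 overlapped. ABCA12, which fills the lipid granules of epidermal cells, had 8.70 and 9.22 CPM in carcinoma and 9.48 and 7.42 CPM in control. ABCA3, which fills the lamellar bodies of lung cells with surfactant lipid, had 9.39 and 23.8 CPM in carcinoma and 16.1 and 27.4 CPM in control, so that the pools differed more than the tissues. In all, 11 of 17 listed lipid genes were measured, of which 1 was higher, 2 were lower and 8 were not called, with a median log2 fold change of 0.13.

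Other genes of sterol efflux and its regulation were looked up from a list. Of 21 listed genes 19 were measured, 0 were called higher and 1 lower, with 9 at an unadjusted p under 0.05, and DESeq2 called 0 higher and 2 lower. With the block 3 were higher (RXRG, LCAT and SREBF1) and 2 lower (NR1H3 and APOC1). The gene called lower without the block was NR1H3, which encodes the sterol-sensing receptor LXR alpha, an activator of ABCA1 and ABCG1. NR1H3 had 3.38 and 4.16 CPM in carcinoma and 9.18 and 12.3 CPM in control, and the log2 fold change was −1.53 (standard error 0.33, edgeR adjusted p = 0.0421). The median of the list was 0.44, against 0.03 for all genes. Macrophages express ABCA1, and of 7 measured markers of monocytes and macrophages 1 was lower and 0 were higher (edgeR, 2 at an unadjusted p under 0.05, 1 lower and 0 higher by DESeq2), at a summed 323 and 312 CPM in carcinoma and 503 and 452 CPM in control.

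Of 12 listed drug efflux genes 6 were measured. These went both ways, with ABCC4 higher and ABCG2 lower, and the median log2 fold change of the 6 genes was 0.16. ABCC4, an exporter of cyclic nucleotides, prostaglandins and drugs, had 95.9 and 97.8 CPM in T1 and T2, against 33.8 and 34.5 CPM in C1 and C2. The log2 fold change was 1.50 (standard error 0.12, edgeR adjusted p = 0.00308), 2.84-fold higher in carcinoma. The libraries of each tissue lay almost on top of each other, and the log2 ratio was 1.51 in pool 1 and 1.50 in pool 2. Across all alternatives run, the log2 fold change of ABCC4 lay between 1.44 and 1.52 and the call held.

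ABCG2 was lower in carcinoma. It had 11.8 and 10.7 CPM in T1 and T2, against 29.6 and 22.7 CPM in C1 and C2. Its log2 fold change was −1.22 (standard error 0.24, edgeR adjusted p = 0.0325), 2.33-fold lower. Both carcinoma libraries lay below both controls, with 36 counts in T2 and 98 in C2. The call was lost without T1 (adjusted p = 0.0972), without T2 (0.0740) and without C1 (0.192) and was kept without C2 (0.0448).

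ABCB1, which encodes the drug efflux pump P-glycoprotein, was called only with the block. It had 5.49 and 2.68 CPM in T1 and T2, against 10.9 and 8.81 CPM in C1 and C2. The log2 fold change was −1.18 without the block (standard error 0.41, edgeR adjusted p = 0.138) and −1.08 with it (adjusted p = 4.55e-08). All carcinoma values lay below the controls, but T2 held only 9 counts, and the log2 ratio in pool 2 was −1.72 with a 95% counting interval from −2.95 to −0.65.

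ABCG2 and ABCB1 are expressed in blood vessel walls as well as in secretory epithelium. Some marker genes of each were lower in the same libraries, and others were higher or not called. Of 6 measured endothelial markers 4 were lower and 0 higher (edgeR, 5 at an unadjusted p under 0.05, 4 lower and 0 higher by DESeq2), and their summed level was 316 and 313 CPM in carcinoma and 688 and 705 CPM in control. PECAM1 had 60.2 and 52.0 CPM in carcinoma and 202 and 169 CPM in control. Of 7 genes of milk secretion 6 were lower and 1, LTF, was higher, and their summed level was 3052 and 3911 CPM in carcinoma and 2330 and 1771 CPM in control. LTF, which encodes lactoferrin, had 2977 and 3840 CPM in carcinoma and 355 and 503 CPM in control, and so made up most of the carcinoma sum. Among the 6 lower genes, CSN2 had 12.5 and 5.35 CPM in carcinoma and 807 and 440 CPM in control. The milk lipid gene BTN1A1 had 6.75 and 8.62 CPM in carcinoma and 77.1 and 108 CPM in control. Of 7 measured luminal markers 3 were lower (ESR1, PGR and ELF5) and 0 higher (edgeR, 3 at an unadjusted p under 0.05, 3 lower and 0 higher by DESeq2). The other 4 were not called, with log2 fold changes of 0.23 for GATA3, 0.22 for KRT19, 0.04 for CDH1 and −0.32 for EPCAM. The part of vessel or epithelial content in the ABCG2 and ABCB1 differences was not tested.

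ABCC11, known in humans as the transporter of apocrine glands that sets the earwax type, had 546 and 581 CPM in T1 and T2, against 329.7 and 374 CPM in C1 and C2. On the log2 scale its fold change was 0.68 (standard error 0.12, edgeR adjusted p = 0.0253), which passed the adjusted p but not the fold threshold. This adjusted p was above 0.05 without T1, T2 or C1, and it lay between 0.0459 and 0.188 without single libraries. ABCC5, an exporter of cyclic nucleotides, was not called, at 66.4 and 68.1 CPM in carcinoma and 46.2 and 50.1 CPM in control (log2 fold change 0.48, standard error 0.12, edgeR adjusted p = 0.0682). ABCC3, an exporter of conjugated bile acids and drugs, overlapped between the tissues, with a log2 difference of −0.16 (standard error 0.26, edgeR adjusted p = 0.735). Of 7 measured cartilage markers 5 were higher and 0 lower in carcinoma (edgeR, and likewise by DESeq2). Their summed level was 1121 and 1454 CPM in carcinoma and 100 and 110 CPM in control. Of 5 measured basal and myoepithelial markers 0 were called by edgeR, while DESeq2 called 2 higher and 0 lower. The part of cartilage or myoepithelial content in the ABCC4, ABCA4, ABCA1 and ABCC11 differences was not tested.

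Among 10 measured genes of 19 listed for xenobiotic sensing and conjugation, 2 were higher and 0 lower (edgeR, 4 at an unadjusted p under 0.05, 2 higher and 0 lower by DESeq2). These were NQO1 and GCLM. NFE2L2, which encodes an oxidative stress factor, had 123 and 110 CPM in carcinoma and 126 and 96.0 CPM in control and was not called. At an adjusted p under 0.05 with any fold change, 3 genes of the list were higher and 1 was lower (edgeR). The lower gene was GCLC, at 99.7 and 91.6 CPM in carcinoma and 139 and 134 CPM in control. Its log2 fold change of −0.51 (standard error 0.11, edgeR adjusted p = 0.0421) was under the fold threshold. The median of the list was 0.09.

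**Figure D3:**
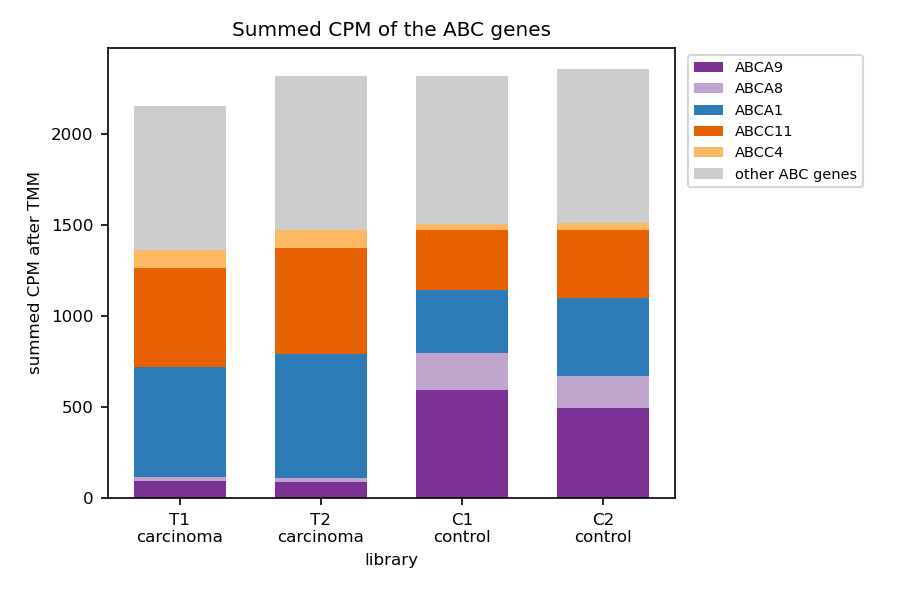
Summed CPM after TMM of the ABC genes (y axis) in each library (x axis), split into ABCA9, ABCA8, ABCA1, ABCC11, ABCC4 and the other ABC genes. The bars reach 2152 and 2316 CPM in T1 and T2 and 2319 and 2354 CPM in C1 and C2. Of the named genes ABCA9 takes the largest part of the control bars and ABCA1 the largest part of the carcinoma bars.

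The summed level of the 29 genes was 2234 ± 116 CPM in carcinoma and 2337 ± 24.2 CPM in control (SD, n = 2 each), but its make-up differed. ABCA9 took 4.32% and 3.75% of all ABC counts in T1 and T2, against 25.5% and 20.9% in C1 and C2. ABCA1 took 27.9% and 29.6% in T1 and T2, against 14.7% and 18.3% in C1 and C2, and ABCC11 took 25.4% and 25.1% in T1 and T2, against 14.2% and 15.9% in C1 and C2. These 3 genes together held 57.6% and 58.4% of ABC counts in T1 and T2 and 54.4% and 55.1% in C1 and C2. Without ABCA8 and ABCA9 the sum was 2121 ± 123 CPM in carcinoma and 1604 ± 116 CPM in control (SD, n = 2 each).

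Shares of counts depend on gene length. Per kilobase of the deposited length, which includes introns, ABCC11 stood highest in both tissues, at 9.58 CPM per kilobase in carcinoma and 5.98 in control. In carcinoma ABCA1 followed at 6.09 CPM per kilobase and ABCF3 at 3.51, and the lowest was ABCB1 at 0.0413. In control ABCA9 followed at 4.13 CPM per kilobase and ABCA1 at 3.67, and the lowest was ABCD2 at 0.0262. ABCA9 had 0.685 CPM per kilobase in carcinoma. Deposited lengths ranged from 0.60 to 2.22 times the RefSeq spans of the same symbols (median 0.99), so positions in this order are approximate.

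ABCB9, a lysosomal peptide transporter related to TAP1 and TAP2, was not called. It had 47.8 and 56.5 CPM in T1 and T2, against 32.4 and 36.6 CPM in C1 and C2, with no overlap (log2 fold change 0.59, standard error 0.17, edgeR adjusted p = 0.0868). TAP1, which carries antigenic peptides into the endoplasmic reticulum and is an ABC protein outside the naming rule, overlapped, at 22.7 and 31.5 CPM in carcinoma and 25.6 and 30.6 CPM in control. Of 7 measured genes of 9 listed for peptide loading, 0 were called (edgeR, 2 at an unadjusted p under 0.05, 0 by DESeq2), with a median of −0.19. CFTR, the chloride channel of subfamily C, was not called either, at 55.2 and 47.6 CPM in carcinoma and 44.9 and 40.6 CPM in control (log2 fold change 0.27, standard error 0.15).

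ABCC9, which encodes the sulfonylurea receptor subunit of ATP-sensitive potassium channels in muscle and vessel walls, had 19.7 and 16.95 CPM in T1 and T2, against 29.7 and 30.4 CPM in C1 and C2. It was not called (log2 fold change −0.70, standard error 0.19, edgeR adjusted p = 0.0811), although the tissues did not overlap. Of 6 measured pericyte and mural markers 1, PDGFRB, was lower and 0 were higher (edgeR, 1 at an unadjusted p under 0.05, 1 lower and 0 higher by DESeq2), with CSPG4 higher in the blocked fit, and their summed level was 102 and 222 CPM in carcinoma and 159 and 274 CPM in control. The part of muscle or vessel wall content in the ABCC9 values was not tested.

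None of the mitochondrial and heme transporters was called in either fit (0 of 4 by edgeR, 0 also at an unadjusted p under 0.05, 0 by DESeq2). ABCB10, which takes part in heme synthesis, had 64.1 and 65.1 CPM in carcinoma and 72.0 and 64.9 CPM in control. ABCB8, of the mitochondrial inner membrane, had 12.5 and 22.0 CPM in T1 and T2, against 5.11 and 16.9 CPM in C1 and C2. Its log2 fold change was 0.69 without the block (standard error 0.65, edgeR adjusted p = 0.533) and just under the threshold of 1 with it. ABCB6, a porphyrin transporter, had 15.0 and 25.9 CPM in T1 and T2, against 9.62 and 16.0 CPM in C1 and C2. For both ABCB8 and ABCB6 the carcinoma library exceeded the control library of its own pool, while the tissues overlapped across pools. Among 16 measured genes of 20 listed for iron-sulfur and heme synthesis, 0 were called (edgeR, 1 at an unadjusted p under 0.05, 0 by DESeq2), with a median of 0.17, and ALAD was higher with the block.

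The peroxisomal ABCD3, which brings branched and dicarboxylic acyl-CoA into the organelle, had 121 and 118 CPM in T1 and T2, against 127 and 113 CPM in C1 and C2. Its fitted log2 fold change of −0.00 had a standard error of 0.12, the value nearest 0 of all 29 genes. ABCD2, which carries very long-chain acyl-CoA, had 4.84 and 3.87 CPM in carcinoma and 2.20 and 1.16 CPM in control. The log2 fold change was 1.27 without the block (standard error 0.40, edgeR adjusted p = 0.111) and 1.20 with it (adjusted p = 1.42e-05). The ABCD2 libraries did not overlap, but T2 held 13 counts and C2 held 5. ABCD4, which moves cobalamin out of lysosomes, was not called, at 14.4 and 19.3 CPM in carcinoma and 10.7 and 12.7 CPM in control (log2 fold change 0.52, standard error 0.27). Of 17 measured genes of 23 listed for peroxisome biogenesis and beta-oxidation, 0 were called (edgeR, 0 also at an unadjusted p under 0.05, 0 by DESeq2), with a median of 0.10. Of 6 measured genes of 10 listed for cobalamin handling, 0 were called likewise (edgeR, 0 at an unadjusted p under 0.05, 0 by DESeq2).

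The soluble members were not called (0 of 3 by edgeR, 1 at an unadjusted p under 0.05, 0 by DESeq2). ABCE1, which splits ribosomes after termination, had 80.7 and 73.5 CPM in T1 and T2, against 99.8 and 99.7 CPM in C1 and C2, and the log2 fold change was −0.37 (standard error 0.11, edgeR adjusted p = 0.103). ABCF3 had 21.9 and 24.7 CPM in carcinoma and 16.8 and 16.5 CPM in control, and the log2 fold change was 0.48 (standard error 0.20, edgeR adjusted p = 0.200). ABCF1, which binds the initiation factor eIF2, had 37.1 and 36.3 CPM in carcinoma and 27.9 and 34.1 CPM in control. The signs of ABCE1 and of the ABCF genes were opposite, and all 3 genes had no overlap between the tissues. Of 8 measured genes of 12 listed as their partners in ribosome recycling and initiation, 0 were called (edgeR, 1 at an unadjusted p under 0.05, 0 by DESeq2), with a median of −0.21.

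**Figure D4:**
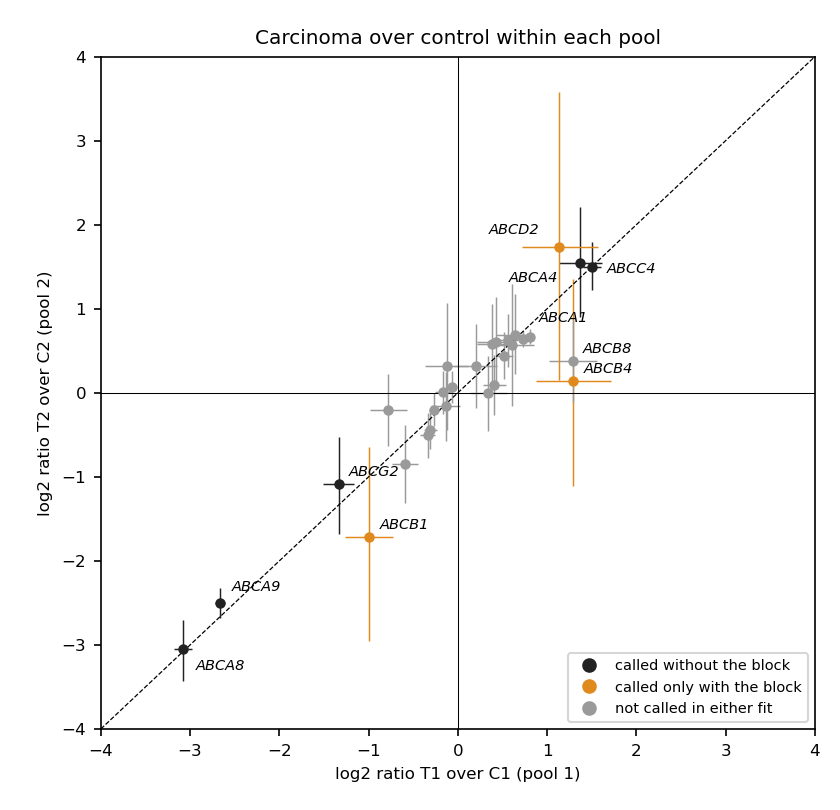
Log2 ratio of carcinoma to control for each ABC gene in pool 1 on the x axis (T1 over C1) and in pool 2 on the y axis (T2 over C2). Bars are 95% counting intervals, the dashed line marks equality, and ABCA8 and ABCA9 lie at the lower left, ABCC4 and ABCA4 at the upper right, and ABCB8 and ABCB4 lie to the right of the line.

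Within the pools, 25 of 29 genes had the same sign of the log2 ratio of carcinoma to control and 4 had opposite signs. The 4 were ABCA12, ABCB10, ABCD3 and ABCG1, and none of them was called in either fit. The share of all genes with the same sign in both pools was not counted. A gene whose tissues do not overlap has the same sign by construction, and 20 ABC genes and 57.6% of all genes did not overlap. The 95% counting intervals of the pool ratios overlapped for 27 genes and did not for ABCA1 and ABCB8. ABCB8 had a log2 ratio of 1.29 (1.02 to 1.56) in pool 1 and 0.38 (−0.11 to 0.87) in pool 2.

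Some ABC genes differed more between pools than between tissues. In both tissues ABCB8, ABCA2, ABCA3, ABCG1, ABCB6, ABCC3, ABCA1 and ABCC11 were higher in pool 2 than in pool 1 beyond their counting intervals. The share of all genes that did so was not counted. ABCA1 and ABCC11, with many counts, differed less between pools than between tissues. Their mean log2 ratios of pool 2 to pool 1 were 0.26 and 0.14, against tissue log2 fold changes of 0.73 and 0.68. ABCB8 was higher in pool 2 by 0.82 on the log2 scale in carcinoma (95% counting interval 0.44 to 1.18) and by 1.73 in control (1.30 to 2.14). ABCA2, an endolysosomal lipid transporter, was higher by 1.12 (0.72 to 1.50) in carcinoma and by 1.00 (0.60 to 1.39) in control. The mean of these offsets over both tissues was at least 0.5 in size for 7 genes, 5 higher in pool 2 and 2, ABCB1 and ABCD2, lower. ABCB1 held only 9 counts in T2 and ABCD2 only 5 in C2. The median absolute offset was 0.18 for the 29 ABC genes and 0.20 for the 7712 genes that reached 50 counts in all libraries. Of these 7712 genes 11.6% had an offset at least as large in size as the −0.62 of ABCD2, the smallest of the 7. ABCB1, ABCD2 and other members under 50 counts in a library are not among the 7712 genes, so the compared sets differ in depth. The pools differ in dogs, in the mean age of the dogs by the paper (higher in pool 1) and in depth, and these cannot be told apart.

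**Figure D5:**
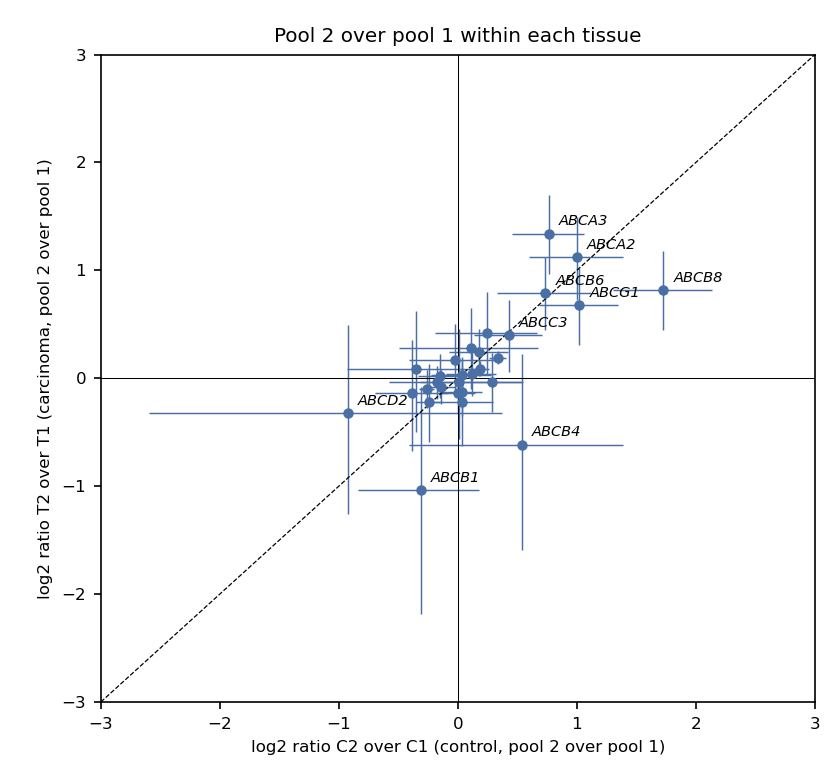
Log2 ratio of pool 2 to pool 1 for each ABC gene in control (C2 over C1, x axis) and in carcinoma (T2 over T1, y axis), with bars for the 95% counting interval and a dashed line of equality. ABCB8, ABCA2, ABCA3, ABCG1 and ABCB6 lie at the upper right, higher in pool 2 in both tissues, while most genes lie near 0.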

How the data were processed

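The data were gene counts from 4 libraries of total RNA. The deposited tables give raw counts, which the authors had not normalized, beside a gene length. The paper's methods name TopHat2 and HTSeq at default settings, the submitters' processing notes STAR and featureCounts. The build and the featureCounts strand setting were not given in the sources used here. All 11277 genes passed the low count filter (filterByExpr) and were tested.

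The main test used edgeR 4.0.16 under R 4.3.3 (TMM, quasi-likelihood test, no block) and, as an alternative, DESeq2 1.42.0, and figures were drawn with matplotlib 3.10.9. Standard errors were derived from each log2 fold change and its F statistic. Ratios of 2 libraries have exact conditional binomial intervals at 95%. Replicates differed by more than counting error (chi-square per degree of freedom 31.7 in carcinoma and 46.0 in control). That statistic used library totals without TMM scaling, so differences in scaling between replicates are part of it. The paper states that T1 and C1, and T2 and C2, share dogs. Their departures from the tissue means had a correlation of 0.80 over genes, which are no independent replicates. The fits were tested on simulated data, drawn with the same dispersion for every gene and no difference between pools. That test does not cover shared departures of libraries from the same pool.

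Every gene matching the rule could be named, except 1 that was not called and is not reported here beyond the counts and sums over members, and called genes are given per library. From related lists, called genes and some others chosen after their values were seen are named. Members and lists were chosen with earlier results of these data known. Alternatives were the replicate block, DESeq2, RLE size factors, at least 10 counts in every library, no filter and leaving out each library. Because all genes passed the filter, the fit with no filter repeats the main fit and adds no separate check. RefSeq symbols matched 29 of 29 members. A further 15 RefSeq genes that meet the naming rule had no row under their symbol in the count tables and could not be analysed.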

Additional observations from a re-analysis of the deposited data

How the results depend on the processing

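The calls of ABCA8, ABCA9 and ABCC4 held under every alternative run, that of ABCA4 under all but the fits without single libraries, and that of ABCG2 under all but the fits without T1, T2 or C1. With the replicate block, 4 ABC genes were higher and 800 of all genes, against 2 and 521 without it, ABCB1 (−1.08), ABCB4 (1.09) and ABCD2 (1.20) were added, and ABCA12 turned to −0.0472. The block ended no call. Without single libraries, 1 ABC gene was higher in each of the 4 fits and 2 to 3 were lower, and 342 to 508 of all genes were higher, the lowest without C1. In these fits a tissue with 1 library is assumed to vary like the other. The sign changed for genes not called, with log2 fold changes from −0.34 to 0.81 for ABCA2, −1.18 to 0.11 for ABCA3, −0.0874 to 0.21 for ABCA12, −0.0625 to 1.72 for ABCB8, −0.42 to 0.0607 for ABCC3, −0.0864 to 0.0391 for ABCD3 and −0.38 to 0.69 for ABCG1. The median of the ABC genes ranged from 0.02 without T2 to 0.47 without C2. At an adjusted p under 0.05 with any fold change, a setting chosen after the data were seen, 4 ABC genes were higher and 3 lower, 24.1% in all against 13.9% of all genes. Causes were not tested. With at least 10 counts in every library, ABCB1 and ABCD2 were not tested and 425 of all genes were called in each direction. At the depth of pool 2 a count of 0 allows up to 0.892 CPM in T2 and 0.695 CPM in C2, which leaves differences of ABCD2, ABCB4 and ABCB1 there poorly resolved.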

Other observations

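The genes next to the called members in the RefSeq order were looked up after the ABC values had been seen, and their levels are given without explanation. CLDN10, which encodes a tight junction claudin and neighbours ABCC4, had 22.4 and 21.4 CPM in carcinoma and 1.05 and 0.93 CPM in control, and the log2 fold change was 4.42 (standard error 0.30, edgeR adjusted p = 0.00249). GCLM, which serves glutathione synthesis and neighbours ABCA4, had 73.6 and 59.2 CPM in carcinoma and 23.7 and 24.8 CPM in control, and the log2 fold change was 1.46 (standard error 0.17, edgeR adjusted p = 0.00766). ARHGAP29, on the other side of ABCA4, had 92.5 and 82.4 CPM in carcinoma and 138 and 121 CPM in control and was not called. PPM1K and PKD2, on either side of ABCG2, were not called, with log2 fold changes of 0.27 (standard error 0.22) and −0.19 (standard error 0.14). RUNDC3B and CROT, which flank the adjacent pair ABCB1 and ABCB4, had log2 fold changes of 0.36 (standard error 0.35) and −0.34 (standard error 0.21) and were not called.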
